A study of Mus musculus with 4 samples.

Results

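Among the genes measured in sorted follicular B cells, 50 were near silent in one genotype and expressed in the other. Members were chosen by their FPKM, a level of expression scaled for transcript length and for the size of the library. A gene was taken when its FPKM was below 0.5 in both libraries of one genotype and 1.5 or more in both libraries of the other. Of 23305 genes with a single entry, 22570 were eligible after small-RNA symbols and the genes Il9r, Pydc3 and Ifi202b were left out by name. Of these, 33 genes (0.146%) were gained, that is near silent in WT and expressed in Ets1-/- cells, and 17 (0.0753%) were lost, that is expressed in WT and near silent in Ets1-/- cells, 50 (0.222%) in all. A further 7 small-RNA symbols met the limits as gained and 4 as lost. Since these same values selected the genes, their levels and folds are given as a description, without a test.

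Ets1 is the founding member of the ETS family of transcription factors, which bind DNA elements with a GGAA core. It is abundant in resting B and T lymphocytes, and B cells that lack it tend to leave the quiescent state and differentiate into antibody-secreting cells. A resting follicular B cell keeps most genes of other lineages silent, and mature B cells circulate through spleen and lymph node until they meet antigen.

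RNA came from spleens of female mice, with 2 biological replicates per genotype and 4 libraries in all. WT mice were C57BL/6. Ets1-/- mice carried a mixture of the C57BL/6 and 129Sv strains, since inbred C57BL/6 mutants die near birth. The ages of these mice are not given in the sources used here. Both groups were sorted in the same way as live B220+, CD23-high, CD21-low cells negative for CD80 and for switched immunoglobulin isotypes. Ets1 is absent from every cell of the mutant, not from B cells alone. Genotype and strain changed together in these 4 libraries, so differences due to Ets1 and differences due to the strain background cannot be told apart for any gene below. In bulk RNA, fewer cells of a type and less RNA per cell cannot be told apart either.

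The libraries were similar in breadth, with 10466 to 10713 genes at 1 FPKM or more and 7305 to 7945 genes listed at 0. Read numbers are not listed in the tables, and the relative depth estimated from the lowest values ranged from 0.876 in Ets1-/- replicate 2 to 1.75 in WT replicate 2, with WT replicate 1 set to 1. The Ets1 gene itself stood at 231 and 275 FPKM in WT and at 229 and 229.8 FPKM in Ets1-/- cells. The mutant allele removes only part of the gene, so this whole-gene level does not check the labels. Of 12 follicular B cell markers in the files, all 12 were tested and limma, described next, called none (1 at an unadjusted p under 0.05), and their summed FPKM was 8230 and 7978 in WT and 6955 and 8250 in Ets1-/- cells.

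Comparisons across all genes used limma on log2(FPKM + 1) for the 10949 genes with a mean of at least 1 FPKM in either genotype. Calls needed a change of 2-fold or more on this scale, that is 1 or more in log2, and a Benjamini-Hochberg adjusted p of 0.05 or less. This called 96 genes higher (0.877%) and 90 lower (0.822%) in Ets1-/- cells, 186 in all (1.70%). Among the 10899 tested genes that are not members it called 73 higher (0.670%) and 75 lower (0.688%), 148 in all (1.36%). Counts at an unadjusted p under 0.05 are given for some sets of genes. No share over all tested genes stands beside them, so nothing is read from them. All 50 members passed the filter on low values, each through the genotype in which it was expressed. The fit called 23 of the 33 gained members and 15 of the 17 lost members, and nothing is read from these counts because the same contrast chose the genes. The gained members not called were Rprl3, Prtn3, Elane, Mpo, Chi3l1, Tmeff1, Ppic, Gm13154, Tsnaxip1 and Arrdc4, and the lost members not called were 0610007N19Rik and Cdon.

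**Figure D1:**
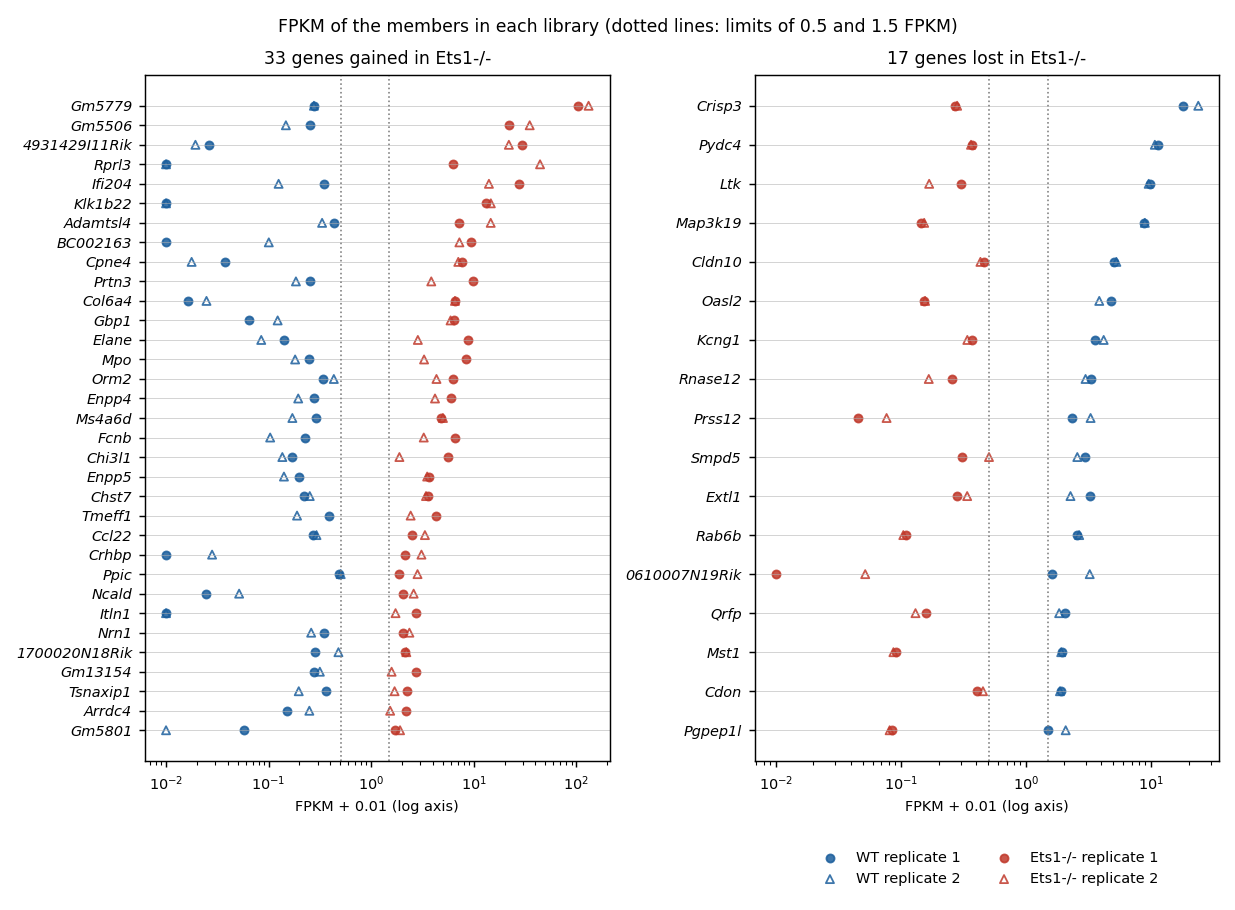
FPKM of each of the 50 members in each of the 4 libraries, on a log axis after adding 0.01, with gained genes on the left and lost genes on the right, ordered by mean FPKM in the expressing genotype. Circles are replicate 1 and triangles replicate 2, WT is blue and Ets1-/- is red, and no member has a library between the dotted limits of 0.5 and 1.5 FPKM.

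The gained set reached higher levels than the lost set. Expressing means ran from 1.79 to 118 FPKM for gained genes, with a median of 4.91, and from 1.78 to 20.8 FPKM for lost genes, with a median of 2.79. In the silent genotype the median of the means was 0.190 FPKM for gained and 0.202 FPKM for lost genes. At least 10 FPKM was reached by 7 gained and 2 lost genes, while 11 gained and 9 lost genes stayed under 3 FPKM. On the log2(FPKM + 1) scale the gained genes had a median log2 fold change of 2.28 (1.15 to 6.54) and the lost genes one of -1.79 (-4.09 to -1.02). The added 1 shrinks these values for low genes. Where the silent mean was above 0, the median ratio of the expressing to the silent mean was 28.8 for gained and 24.4 for lost genes.

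Gene class and length were compared next, since a short transcript rests on few fragments. The annotation of the mm9 genome placed 30 gained members, 28 of them protein-coding and 2 pseudogenes, and 16 lost members, all protein-coding. The summed exon length had a median of 2275.5 bases in the gained set and 3260.5 bases in the lost set, against 3515 bases over all tested genes. The pseudogene share of all tested genes was 0.459%. From the length and the FPKM, the gained genes had a median of 8.53 fragments for every 1000000 mapped in the expressing genotype and the lost genes 12.9, with the lowest at 1.46 for Gm5801 and 1.70 for Pgpep1l.

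A first group of gained genes has a near-identical transcript elsewhere in the genome. For 47 members the transcript or gene sequence was searched against all annotated transcripts, and 3, all gained, had a match of at least 95% identity over at least 50% of their length. BC002163, annotated as a pseudogene, matched Ndufs5, which encodes an accessory subunit of mitochondrial complex I, at 99.4% over 321 bases. Gm5801, also annotated as a pseudogene, matched Ube2j2, an endoplasmic reticulum ubiquitin-conjugating enzyme, at 99.3% over 816 bases. Gm5506 matched the glycolytic enzyme gene Eno1 at 99.5% over 1648 bases.

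The stretches around single differences show how little separates a fragment of one gene from a fragment of the other. Capitals mark the base that differs, sequences run 5′ to 3′ along the member's strand, and positions in substitutions count from 1 at the member's 5′ end, with the member's base first. BC002163 lies on the plus strand of mm9 at chr16:42955744-42956064 and differs from Ndufs5 by 2 substitutions, C81T and G105A. The first lies in chr16:42955809-42955838.
BC002163: cgcagaacagccctaCaagaacgccgctcg
Ndufs5: cgcagaacagccctaTaagaacgccgctcg
The second lies in chr16:42955833-42955862.
BC002163: cgctcggtgccacgcGtttgaaaaagagtg
Ndufs5: cgctcggtgccacgcAtttgaaaaagagtg
Gm5801 lies on the minus strand at chr14:56629373-56630188 and carries 6 differences, of which A211G lies in chr14:56629964-56629993.
Gm5801: actccttatgaaggtAgctattatcatgga
Ube2j2: actccttatgaaggtGgctattatcatgga

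These members were measured beside more abundant partners. BC002163 was listed at 0 and 0.0905 FPKM in WT and at 9.32 and 7.24 FPKM in Ets1-/- cells. Ndufs5 stood at 23.1 and 37.7 FPKM in WT and at 33.5 and 26.7 FPKM in Ets1-/- cells, where the genotypes overlapped and limma gave a log2 fold change of 0.02 (SE 0.27, adjusted p = 0.993). The member thus rose from at most 0.240% of the summed FPKM of the pair in WT to 21.8% and 21.3% in Ets1-/- cells.

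Gm5506 stood at 0.241 and 0.137 FPKM in WT and at 22.3 and 35.1 FPKM in Ets1-/- cells. Its partner Eno1 stood at 121 and 124 FPKM in WT and at 64.9 and 98.4 FPKM in Ets1-/- cells, with both Ets1-/- libraries below both WT libraries and a limma log2 fold change of -0.60 (SE 0.23, adjusted p = 0.359). Gm5506 took 25.6% and 26.3% of the summed FPKM of the pair in Ets1-/- cells. Gm5801 stood at 0.0477 and 0 FPKM in WT and at 1.69 and 1.90 FPKM in Ets1-/- cells, while Ube2j2 stood at 3.13 and 4.45 against 4.90 and 4.12 FPKM (log2 fold change 0.21, SE 0.20, adjusted p = 0.782). How the estimation divided fragments between such copies is not given in the sources used here, so the levels of these 3 members are uncertain, and whether that division moved with genotype was not tested.

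**Figure D2:**
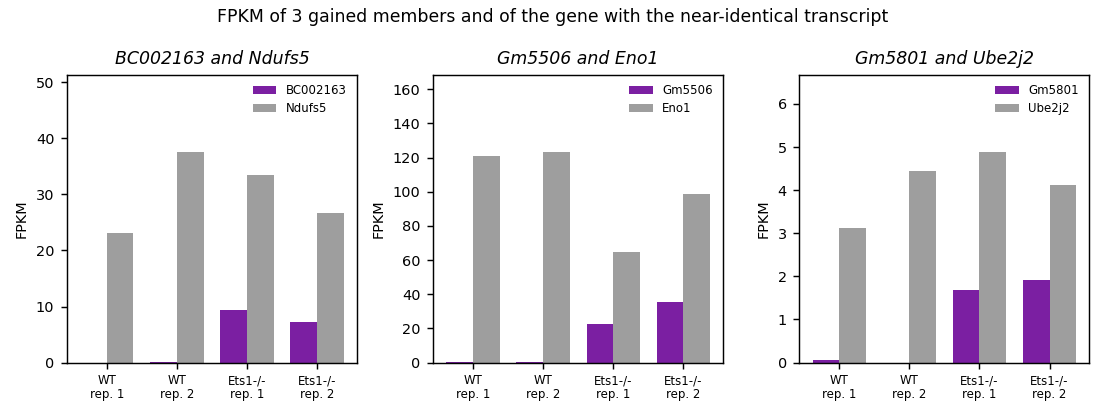
FPKM of 3 gained members (purple) and of the gene with the near-identical transcript (grey) in each of the 4 libraries, on linear axes that start at 0, 1 bar per library. The member is near 0 in both WT libraries of each pair and takes 21.3% to 31.6% of the summed FPKM of the pair in the Ets1-/- libraries.

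The most abundant gained gene of all was Gm5779, which RefSeq lists as a transcribed pseudogene. It stood at 0.267 FPKM in both WT libraries and at 104 and 132 FPKM in Ets1-/- cells. Rprl3, listed by RefSeq as an RNase P RNA, was at 0 in both WT libraries and at 6.25 and 44.3 FPKM in Ets1-/- cells. The Rprl3 libraries of the Ets1-/- genotype differed from each other more than those of any other member. Neither gene was placed or searched for copies here.

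A second group of gained genes encodes proteins of neutrophil granules. Prtn3 encodes proteinase 3, Elane neutrophil elastase and Mpo myeloperoxidase, all made in granulocyte precursors, and Fcnb encodes ficolin B, a lectin of myeloid cells. Prtn3 stood at 0.245 and 0.175 FPKM in WT and at 9.77 and 3.85 FPKM in Ets1-/- cells. Elane stood at 0.131 and 0.0748 FPKM in WT and at 8.84 and 2.84 FPKM in Ets1-/- cells. Both genes were high in the Ets1-/- libraries, with replicate 1 far above replicate 2.

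Mpo stood at 0.241 and 0.171 FPKM in WT and at 8.36 and 3.27 FPKM in Ets1-/- cells. Fcnb stood at 0.219 and 0.0936 FPKM in WT and at 6.53 and 3.25 FPKM in Ets1-/- cells. Chi3l1, a chitinase-like secreted lectin that is not on the neutrophil list, stood at 0.158 and 0.126 FPKM in WT and at 5.63 and 1.88 FPKM in Ets1-/- cells. These 5 genes were the gained members whose Ets1-/- replicate 1 was at least 2 times replicate 2, by 2.01 to 3.11 times. The reverse was seen for Adamtsl4 and Rprl3, and in the lost set no pair of WT libraries differed that much.

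**Figure D3:**
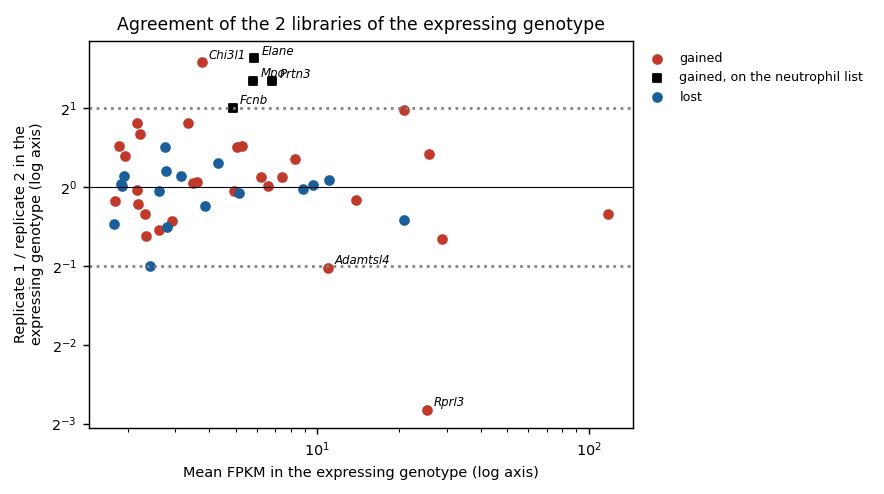
Ratio of replicate 1 to replicate 2 in the expressing genotype (vertical log axis) against the mean FPKM in that genotype (horizontal log axis), 1 point per member, with gained genes in red, gained genes on the neutrophil list as black squares and lost genes in blue. The dotted lines mark a ratio of 2 and its inverse, and the 4 neutrophil-list members and Chi3l1 lie on or above the upper line.

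Markers of other cell types were counted beside the members, because a sorted population can carry RNA of cells outside its gate. The files hold 17 neutrophil-list genes, of which 4 are members, so that their direction was fixed by the choice of members. Of the other 13, 12 were higher in both Ets1-/- libraries than in both WT libraries, and limma called 3 higher (Camp, Ngp and Ltf). The summed FPKM of these 13 genes was 121 and 99.2 in WT and 2609 and 716 in Ets1-/- cells, and that of all 17 was 122 and 99.7 in WT and 2642 and 729 in Ets1-/- cells. None of the 17 was at 0 in every library. Camp, which encodes the antimicrobial peptide cathelicidin, stood at 4.40 and 4.34 FPKM in WT and at 224 and 69.2 FPKM in Ets1-/- cells (log2 fold change 4.55, adjusted p = 0.0301 by limma). The neutrophil granule protein gene Ngp stood at 5.84 and 5.06 against 236 and 78.3 FPKM (log2 fold change 4.41, adjusted p = 0.0282), and the lactoferrin gene Ltf at 1.31 and 1.38 against 58.2 and 19.1 FPKM (log2 fold change 3.88, adjusted p = 0.0395). In all 17 genes Ets1-/- replicate 1 was the highest library.

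The erythroid list also moved with genotype, from a summed FPKM of 8.79 and 7.31 in WT to 96.9 and 32.4 in Ets1-/- cells, with 9 of its 11 genes higher in both Ets1-/- libraries. limma called none of its 5 tested genes, 4 of which had an unadjusted p under 0.05. The monocyte and macrophage list summed to 92.4 and 51.1 FPKM in WT and to 182 and 115 FPKM in Ets1-/- cells, with 4 of its 17 genes higher in both Ets1-/- libraries and 1 of 12 tested genes called. Its largest contributor, the lysozyme gene Lyz2, stood at 42.2 and 17.95 FPKM in WT and at 102 and 45.7 FPKM in Ets1-/- cells. The called gene, Emr1, stood at 2.35 and 2.63 FPKM in WT and at 23.5 and 37.2 FPKM in Ets1-/- cells. Genes of this list other than the 4 overlapped between the genotypes. In the NK cell list, 7 of 12 genes were lower and 1 was higher in both Ets1-/- libraries. None of its 11 tested genes was called by limma (5 at an unadjusted p under 0.05). Its summed FPKM overlapped between the genotypes, at 60.1 and 41.4 in WT and 30.6 and 42.1 in Ets1-/- cells. Over all lists of other cell types, limma called 6 of 94 tested genes that are not members, against 1.36% of all tested genes that are not members. No share over all genes stands beside the counts of list genes higher or lower in both Ets1-/- libraries. The lists were drawn up with earlier results of these data known, so nothing is read from these comparisons. The part of such cells in the levels of Prtn3, Elane, Mpo, Fcnb, Chi3l1 or any other member was not tested. Without the 4 neutrophil-list members and the 3 members with a near-identical copy, 26 gained genes remained.

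**Figure D4:**
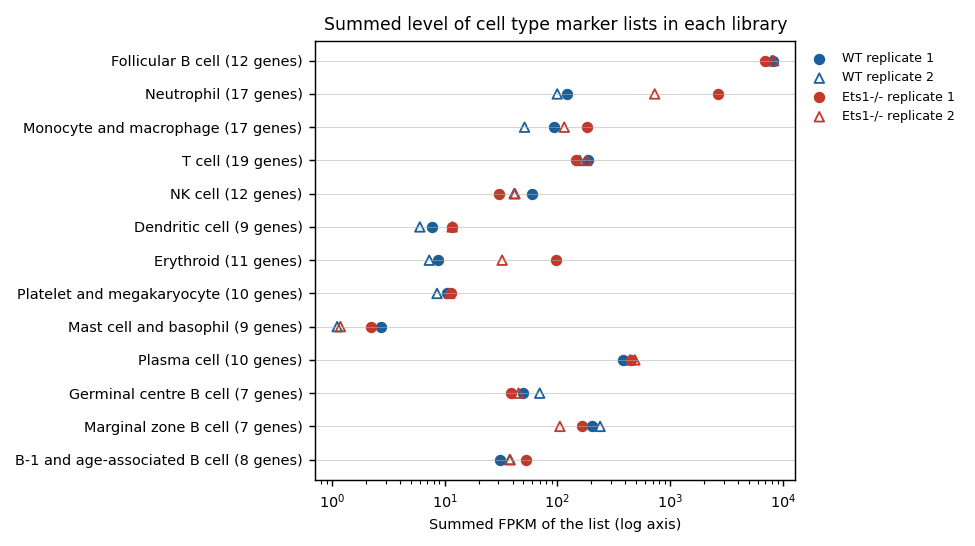
Summed FPKM of each cell type marker list in each of the 4 libraries, on a log axis, with circles for replicate 1, triangles for replicate 2, blue for WT and red for Ets1-/-. The neutrophil list (122 and 99.7 in WT, 2642 and 729 in Ets1-/-) and the erythroid list show the widest separation of the genotypes, and the follicular B cell list lies at 6955 to 8250 in all libraries.

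Other gained genes act in innate immunity. Ifi204 belongs to the PYHIN family of interferon-inducible nucleic acid sensors, and stood at 0.337 and 0.115 FPKM in WT and at 27.7 and 14.1 FPKM in Ets1-/- cells. Gbp1, an interferon-inducible guanylate-binding GTPase, stood at 0.0538 and 0.113 FPKM in WT and at 6.49 and 5.94 FPKM in Ets1-/- cells. Orm2, an acute-phase plasma glycoprotein made mainly in liver, stood at 0.329 and 0.423 FPKM in WT and at 6.22 and 4.32 FPKM in Ets1-/- cells. The Ets1-/- libraries of Gbp1 agreed closely, whereas those of Ifi204 differed by 1.97 times.

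Ms4a6d, a member of the membrane-spanning MS4A family, stood at 0.282 and 0.161 FPKM in WT and at 4.82 and 5.005 FPKM in Ets1-/- cells. Ccl22, the chemokine that attracts cells bearing Ccr4, stood at 0.263 and 0.283 FPKM in WT and at 2.49 and 3.33 FPKM in Ets1-/- cells. Itln1, a secreted lectin that binds microbial glycans, was at 0 in both WT libraries and at 2.74 and 1.72 FPKM in Ets1-/- cells, so no fold is given.

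Secreted and extracellular matrix proteins formed a further group. Klk1b22, a kallikrein-family serine protease, was at 0 in both WT libraries and at 13.1 and 14.7 FPKM in Ets1-/- cells. Adamtsl4, an ADAMTS-like protein of microfibrils, stood at 0.424 and 0.322 FPKM in WT and at 7.20 and 14.6 FPKM in Ets1-/- cells. Col6a4, a chain of type VI collagen, stood at 0.00649 and 0.0148 FPKM in WT and at 6.60 and 6.55 FPKM in Ets1-/- cells. Klk1b22 and Col6a4 were near constant between the Ets1-/- libraries, and Adamtsl4 was not.

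Enpp4 and Enpp5, neighbouring genes of the ectonucleotide pyrophosphatase/phosphodiesterase family, both belonged to the gained set. Enpp4 stood at 0.270 and 0.184 FPKM in WT and at 5.94 and 4.19 FPKM in Ets1-/- cells. Enpp5 stood at 0.188 and 0.131 FPKM in WT and at 3.67 and 3.51 FPKM in Ets1-/- cells. Crhbp, which binds corticotropin-releasing hormone, Nrn1, the neuronal surface protein neuritin, and Tmeff1, a transmembrane protein with follistatin-like domains, had Ets1-/- means of 2.60, 2.19 and 3.35 FPKM.

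4931429I11Rik, which RefSeq names Jhy, lies on the chromosome of Ets1. It stood at 0.0164 and 0.00935 FPKM in WT and at 29.5 and 22.0 FPKM in Ets1-/- cells. Cpne4, a calcium-dependent phospholipid-binding copine, stood at 0.0272 and 0.00776 FPKM in WT and at 7.76 and 7.07 FPKM in Ets1-/- cells. These genes had the lowest WT levels among the gained members above 5 FPKM that were not at 0, together with Col6a4.

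The remaining gained genes were expressed at low levels. Chst7, a carbohydrate sulfotransferase, had an Ets1-/- mean of 3.49 FPKM, the cyclophilin gene Ppic 2.33 FPKM and Ncald, the calcium sensor neurocalcin delta, 2.31 FPKM. The noncoding RNA 1700020N18Rik, Gm13154, Tsnaxip1 and the arrestin-domain gene Arrdc4 had Ets1-/- means of 2.17, 2.17, 1.95 and 1.86 FPKM.

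The lost set was led by Crisp3, a cysteine-rich secretory protein. Crisp3 stood at 17.9 and 23.8 FPKM in WT and at 0.262 and 0.272 FPKM in Ets1-/- cells. Pydc4, a PYHIN-family gene of the same cluster as the gained Ifi204, stood at 11.4 and 10.7 FPKM in WT and at 0.360 and 0.354 FPKM in Ets1-/- cells. Oasl2, an interferon-induced oligoadenylate synthetase-like protein, stood at 4.77 and 3.84 FPKM in WT and at 0.144 and 0.146 FPKM in Ets1-/- cells. Interferon-inducible families were thus found in both directions, with Ifi204 and Gbp1 gained and Pydc4 and Oasl2 lost.

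Kinases and other signalling genes were lost as well. Ltk, a receptor tyrosine kinase related to Alk, stood at 9.75 and 9.56 FPKM in WT and at 0.291 and 0.158 FPKM in Ets1-/- cells. Map3k19, a MAP kinase kinase kinase listed as Ysk4 in the annotation, stood at 8.77 and 8.91 FPKM in WT and at 0.136 and 0.144 FPKM in Ets1-/- cells. Of the other 37 receptor tyrosine kinases in the files 5 were tested and limma called none (2 at an unadjusted p under 0.05).

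Cdon, a cell-surface protein that acts as a Hedgehog co-receptor, stood at 1.91 and 1.86 FPKM in WT and at 0.397 and 0.443 FPKM in Ets1-/- cells. Rab6b, a small GTPase of Golgi traffic, stood at 2.56 and 2.65 FPKM in WT and at 0.0994 and 0.0946 FPKM in Ets1-/- cells. Mst1, the secreted ligand of the Mst1r receptor, stood at 1.92 and 1.90 FPKM in WT and at 0.0811 and 0.0772 FPKM in Ets1-/- cells. In these 3 genes the libraries of a genotype lay close together, and Cdon kept the highest level in the silent genotype.

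Among membrane and secreted proteins, Cldn10, a tight-junction claudin, stood at 4.998 and 5.27 FPKM in WT and at 0.455 and 0.423 FPKM in Ets1-/- cells. Kcng1, a modulatory subunit of voltage-gated potassium channels, stood at 3.53 and 4.17 FPKM in WT and at 0.360 and 0.330 FPKM in Ets1-/- cells. Prss12, the serine protease neurotrypsin, stood at 2.31 and 3.27 FPKM in WT and at 0.0351 and 0.0669 FPKM in Ets1-/- cells. WT and Ets1-/- libraries were far apart in all 3.

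Rnase12, a gene of the ribonuclease A family, stood at 3.30 and 2.98 FPKM in WT and at 0.248 and 0.157 FPKM in Ets1-/- cells. 0610007N19Rik, the noncoding RNA that RefSeq names Snhg18, stood at 1.61 and 3.22 FPKM in WT and at 0 and 0.0419 FPKM in Ets1-/- cells, with WT libraries further apart in ratio than those of any other lost member. Smpd5 (a sphingomyelinase), Extl1 (an exostosin-like glycosyltransferase), Qrfp (the precursor of a neuropeptide) and Pgpep1l had WT means of 2.76, 2.74, 1.93 and 1.78 FPKM.

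The limits cut through a continuous range of values. Just inside, Ppic stood at 0.477 and 0.495 FPKM in WT, and 1700020N18Rik at 0.275 and 0.470 FPKM. Arrdc4 and Gm13154 entered with lower Ets1-/- values of 1.52 and 1.57 FPKM. Just outside, Tmem159 and Slco5a1 had 1 WT library at 0.506 and 0.526 FPKM, and Mnda and Tspan33 had an Ets1-/- library at 1.48 and 1.47 FPKM.

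In the lost direction Smpd5, with 0.496 FPKM in Ets1-/- replicate 2, and Cldn10 were nearest to the low limit. Pgpep1l and 0610007N19Rik were nearest to the high limit, both in WT replicate 1. Synj2 and Asb2 stayed outside with 1 Ets1-/- library at 0.531 and 0.532 FPKM. Guca1b, at 1.44 and 2.30 FPKM in WT and at 0 in both Ets1-/- libraries, and Gm3219, at 1.41 FPKM in both WT libraries, missed the high limit.

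Position was asked next, because a mixed strain background can carry 129-derived sequence around the targeted Ets1 gene, which lies at chr9:32443806-32565405 of mm9. The 48 members that could be placed were spread over 18 chromosomes. Chromosome 9 held 6 of them (12.5%), against 5.50% of tested genes, and chromosome 1 also held 6. On chromosome 9, 3 were gained and 3 lost. Within 20 Mb of Ets1 were Cdon, lost, at 2.66 Mb, and 4931429I11Rik, gained, at 8.14 Mb. Rab6b, Cpne4, Col6a4 and Mst1 lay 70.4, 71.9, 73.3 and 75.4 Mb away, and both directions were present in that stretch. The share of the linked 129 segment in these genes was not tested.

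Genes that are not members give a view of the same chromosome that the choice of members did not fix. On chromosome 9, limma called 16 of 582 non-members (2.75%), against 1.36% of all tested non-members. Within 20 Mb of Ets1 it called 5 of 187, namely Ap1m2, St14, Ddx25, Slc37a2 and Thy1, all lower in Ets1-/- cells. The neutrophil-list genes Camp, Ngp and Ltf, 77.2, 77.8 and 78.4 Mb from Ets1, were among the 16.

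**Figure D5:**
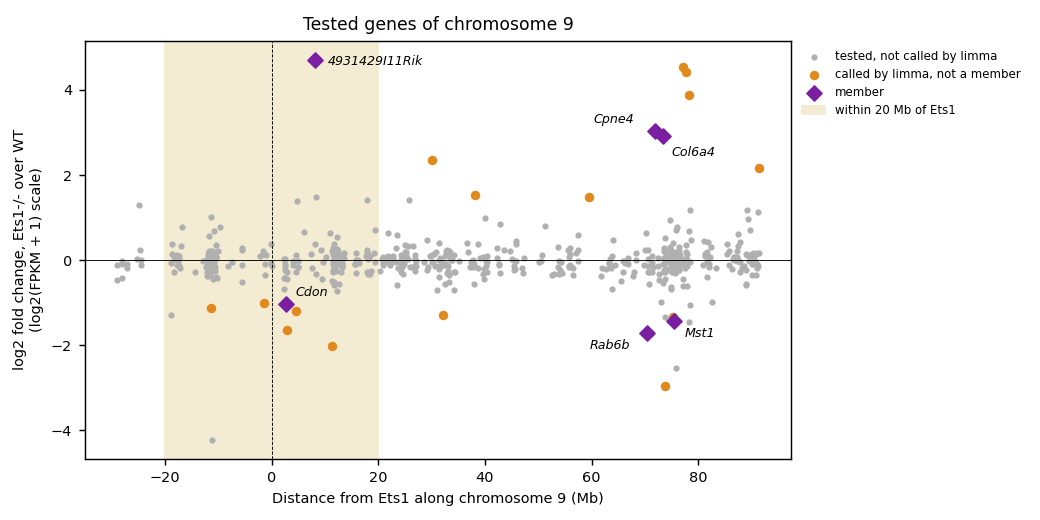
Log2 fold change (Ets1-/- over WT, log2(FPKM + 1) scale) of tested genes on chromosome 9 against distance from Ets1 in Mb, with members as purple diamonds, other genes called by limma in orange and genes not called in grey. The shaded band is 20 Mb either side of Ets1, where Cdon is below 0 and 4931429I11Rik above 0, and the other 4 members lie 70.4 to 75.4 Mb away.

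Some members were neighbours of each other. With 8 members lying within 500 kb of another, 4 pairs were found. Prtn3 and Elane were 3.1 kb apart on chromosome 10 and both gained, and Enpp4 and Enpp5 were 9.7 kb apart on chromosome 17 and both gained. The other pairs ran in opposite directions. Ifi204, gained, and Pydc4, lost, were 148 kb apart in the PYHIN cluster of chromosome 1, and Arrdc4, gained, and Pgpep1l, lost, were 472.8 kb apart on chromosome 7.

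The nearest tested genes on either side of the members mostly stayed uncalled. Some lay far off, the furthest at 4242357 bases from BC002163. Of 91 neighbours that are not members, limma called 2, against 1.36% of all tested non-members. Zfp534, beside Gm13154, stood at 0.0175 and 0.00999 FPKM in WT and at 2.03 and 1.38 FPKM in Ets1-/- cells (log2 fold change 1.40, SE 0.19, adjusted p = 0.0449). Ddx25, beside Cdon, stood at 3.67 and 4.17 FPKM in WT and at 0.306 and 0.911 FPKM in Ets1-/- cells (log2 fold change -1.64, SE 0.23, adjusted p = 0.0487). Uncalled neighbours near the limits went both ways. Beside gained members, limma gave Pik3r4 (by Col6a4) -0.98 (adjusted p = 0.0496) and Klk8 (by Klk1b22) -1.27 (adjusted p = 0.0554). Gbp2, by the gained Gbp1, had 1.24 (adjusted p = 0.0562). Zfp534 and Ddx25 moved in the direction of the member beside them. Neither call held when a WT library was left out.

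Genes with the same symbol stem gave a second comparison that the members' own values did not choose. The stem is the symbol without its numbered ending, so it can join genes that are related by name alone. Of 126 tested relatives that are not members limma called 6, against 1.36% of all tested non-members, and leaving out any 1 library gave 1 to 3 calls. The inflammatory chemokine genes Ccl3 and Ccl4 were lower in Ets1-/- cells while the member Ccl22 was gained. Ccl3 stood at 7.37 and 9.05 against 1.63 and 1.28 FPKM (log2 fold change -1.90, adjusted p = 0.0144). Ccl4 stood at 6.18 and 7.81 against 2.16 and 2.12 FPKM (log2 fold change -1.34, adjusted p = 0.0349).

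Pydc3, excluded from the members by name, was lower together with Pydc4, at 45.7 and 44.7 FPKM in WT and 1.64 and 1.23 FPKM in Ets1-/- cells (log2 fold change -4.25, adjusted p = 0.00163 by limma). The collagen gene Col20a1 was higher (log2 fold change 1.63, adjusted p = 0.0143), as was the serine protease gene Prss41 (1.22, adjusted p = 0.0421), and the microtubule-associated protein gene Map7 was lower (-1.29, adjusted p = 0.0243). Prss41 thus moved against the lost member Prss12, and Col20a1 with the gained member Col6a4. None of 8 relatives of Gbp1 was called by limma (1 at an unadjusted p under 0.05), with Gbp2 nearest at a log2 fold change of 1.24 (SE 0.19, adjusted p = 0.0562), and none of 39 relatives of Rab6b or 5 of Ifi204 was called (4 and 3 at an unadjusted p under 0.05). Apart from the member Ifi204, 15 loci listed as differing between C57BL/6 and 129 strains were tested. Of these limma called none, with 7 at an unadjusted p under 0.05. Slamf6 was nearest (log2 fold change 1.43, adjusted p = 0.0535), at 56.4 and 49.2 FPKM in WT and 170 and 121 FPKM in Ets1-/- cells. Of the 25 listed loci that are not members, 10 were higher and 10 lower in both Ets1-/- libraries than in both WT libraries. Some of these, such as Klra5 and Klra6, stayed below 1 FPKM in every library. Neither these counts nor the 7 at an unadjusted p under 0.05 have a share over all genes beside them, so nothing is read from them. In the authors' qRT-PCR, with both genotypes on the mixed background, Slamf6 showed no apparent change. Egr1, Stat4, Prdm1 and Ptpn22 followed the RNA-seq pattern in the same assay. Its cells came from male and female mice and were sorted after bead purification with an added CD11b-negative gate. The strain background was therefore not the only difference from the cells described here. The part of strain in the listed loci was not tested.

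Exons of 7 of the 46 annotated members overlap exons of another gene, and whether the fragments were counted by strand is not given in the sources used here. Mst1 overlaps Rnf123 on the opposite strand, which stood at 45.1 and 38.9 FPKM in WT and at 33.1 and 40.5 FPKM in Ets1-/- cells. Prtn3 overlaps BC005764, Tsnaxip1 overlaps Cenpt, Smpd5 overlaps Oplah and Mpo overlaps Gm11505, all on the opposite strand, and Crisp3 and Ncald overlap a gene on their own strand. Levels of these 7 members are uncertain to that extent.

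Promoters were searched for sequence elements of factors with a role in these cells, in the 300 bases from 250 before to 50 after the gene start given by RefSeq (GRCm38.p6), on both strands. A promoter sequence was found for 22 gained and 14 lost members. The ETS-type element CCGGAAG was found in no gained and 1 lost member, against 22.4% of tested genes and 8.86% of all promoters of the table. The second ETS-type element, CAGGAAG, was found in 7 gained (31.8%) and 2 lost members (14.3%). Its share was 15.2% of tested genes, 14.2% of all genes with a promoter sequence and 13.3% of all promoters. The Runx-type element TGTGGTT was found in 1 gained (4.55%) and no lost member. Its share was 4.59% of tested genes, 5.24% of all genes with a promoter sequence and 5.27% of all promoters. No pair of these elements can match at the same bases. A match is a stretch of letters and no measure of binding.

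A selection of the matches, at least 1 for each element and direction found, is shown with 9 bases on either side, 5′ to 3′ along the gene's strand, with the element or its reverse complement in capitals. That of Ltk, the single CCGGAAG match, begins 5 bases before the gene start, in chr2:119758515-119758539 of GRCm38 on the minus strand.
Ltk: cacctccatCTTCCGGgtaggtgca
CAGGAAG matches of the granule genes Mpo and Prtn3 lie on the plus strand in chr11:87793595-87793619 and chr10:79879491-79879515, and that of Fcnb lies on the minus strand in chr2:28084967-28084991.
Mpo: aggacccttCTTCCTGagaagccta
Prtn3: ggcagagggCTTCCTGtgcctccag
Fcnb: agaggcctcCAGGAAGtgactatct
Those of the gained Enpp4 and the lost Crisp3 lie on the minus strand in chr17:44105814-44105838 and chr17:40242261-40242285.
Enpp4: caggcgtccCAGGAAGcgctccgcg
Crisp3: acctttcttCTTCCTGcaggacaac
The CAGGAAG matches of Col6a4, Ccl22, Gm13154 and Rnase12 are not printed. The TGTGGTT match of Cpne4 lies in chr9:104569411-104569435 on the plus strand.
Cpne4: ctcagctctTGTGGTTtcactgctt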

How the data were processed

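The authors sequenced RNA of sorted follicular B cells (2 WT and 2 Ets1-/- libraries), aligned reads to mm9 with TopHat2 2.0.13, and ran Cuffdiff for expression. Each library has 1 deposited table of FPKM values. Read counts were not used here, and the gene annotation, strand setting and scaling between libraries are not given in the sources used here. The design assumed counts where available, and limma was used because the deposited values are FPKM.

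Each table holds 23309 entries, among them 27 symbols that a spreadsheet had changed to dates, and 4 entries with a repeated symbol were dropped. limma 3.58.1 (R 4.3.3; lmFit, eBayes with trend) was fitted to log2(FPKM + 1) of 10949 genes whose mean FPKM reached 1 in WT or in Ets1-/- cells, with Benjamini-Hochberg adjustment, and was tested on simulated data. Fold changes on this scale understate those of low genes. With 2 libraries per genotype, p-values rest on the spread between these libraries, drawn towards that of genes of similar level. In that spread the other genes weighed more than the gene itself (3.095 prior against 2 residual degrees of freedom). GENCODE M1 (mm9) gave positions, classes and exon lengths, and 94.1% of genes matched. Transcripts were compared with blastn 2.17.0 and extracted with bedtools 2.31.1 and samtools 1.23.1. Tables were made in Python 3.11.15 with pandas 2.3.3.

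Named in the text were the 15 highest members in each direction, members within 20 Mb of Ets1, within 500 kb of another member or on a marker list, those nearest each limit, and called neighbours, relatives and list genes. Other genes (sequence copies, overlapping genes, Gbp2, Pik3r4, Klk8, Slamf6, Klra5, Klra6 and called genes of chromosome 9) were named after their values were seen. The members and lists were chosen with earlier results of these data known. Alternatives covered the limits, the pseudocount, the filter, quantile normalisation, exon length, the replicate block and each library left out. The replicate numbers are shared between genotypes in the labels, but nothing in the sources says that they pair the samples.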

Additional observations from a re-analysis of the deposited data

How the results depend on the processing

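The size of the sets follows the limits. With a low limit of 0.25 FPKM there were 20 gained and 9 lost genes, with 1 FPKM 74 and 59. With a high limit of 1 FPKM there were 65 and 34, and with 3 FPKM 19 and 7. When the mean of the 2 libraries had to pass, there were 67 and 31. Leaving out 1 library gave 40 to 61 gained and 20 to 33 lost genes, with 61 gained without Ets1-/- replicate 2, and 26, 33 and 31 lost without WT replicate 2, Ets1-/- replicate 1 and Ets1-/- replicate 2. A pseudocount of 0.1 moved the folds of all 50 members, whose direction the choice of members fixes.

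In the limma comparison, testing all 17315 genes above 0 without a filter gave 37 higher and 38 lower genes, no called neighbour, 2 called relatives and 2 called marker genes (7 with the filter, the member Fcnb included). Leaving out 1 library gave 61 to 88 higher genes (61 without WT replicate 1) and 42 to 71 lower genes (42 without Ets1-/- replicate 2). It gave 0 to 2 neighbours, 1 to 3 relatives and 8 to 14 marker genes (14 without Ets1-/- replicate 2), where an arm of 1 library was assumed to vary like the other. A pseudocount of 0.1 left 1 neighbour.

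In a fit with a replicate block, 154 genes were higher and 112 lower, with 5 neighbours, 11 relatives and 21 marker genes called. Deviations of same-numbered libraries had a correlation of -0.21. The crossed pairing, chosen after seeing the data, gave 244 higher and 165 lower genes, 7 neighbours, 12 relatives and 30 marker genes. The cause of these changes was not tested. Read numbers are not listed in the tables, so no counting error is given for any value.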

Other observations

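Outside the neutrophil list, 3 markers of other cell types were called by limma. Emr1, which encodes a surface antigen of macrophages, stood at 2.35 and 2.63 FPKM in WT and at 23.5 and 37.2 FPKM in Ets1-/- cells (log2 fold change 3.13, adjusted p = 0.00969). Cd209a, a C-type lectin of dendritic cells, stood at 0.880 and 0.586 FPKM in WT and at 3.28 and 3.60 FPKM in Ets1-/- cells (log2 fold change 1.36, adjusted p = 0.0355). Thy1, a surface glycoprotein of T cells that lies 11.3 Mb from Ets1, stood at 17.4 and 16.2 FPKM in WT and at 3.38 and 3.39 FPKM in Ets1-/- cells (log2 fold change -2.02, adjusted p = 0.00658). Unlike the granule genes, Emr1 was higher in Ets1-/- replicate 2 than in replicate 1, and Cd209a and Thy1 were close in both. The summed T cell list stood at 187 and 158 FPKM in WT and at 147 and 182 FPKM in Ets1-/- cells, with Thy1 the single call among 17 tested genes.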
